A study of Mus musculus with 6 samples.

Results

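The immunoglobulin genes of the mouse lung libraries are described here: the variable (V) and joining (J) segments of the heavy, kappa and lambda loci, the constant region genes of every isotype, and Jchain. They were taken from the count table by symbol and numbered 375 of 49315 genes, with 348 V segments, 14 J segments, 12 constant region genes and Jchain. The lung cells came from male C57BL/6 mice (C57BL/6J in the study's methods) given saline (sham) or bleomycin (BLM), a DNA-damaging agent that injures the lung and leads to fibrosis, by oropharyngeal instillation, and were collected 21 days later. The age of the mice is not given in the sources used here. No transgene or deletion is named for any group. Lungs of the same group were pooled before sorting. Cells were either left unsorted or sorted for the lysosomal membrane protein Lamp1 on the cell surface into Lamp1-depleted and Lamp1-enriched fractions, which the study used to separate senescent cells. Each of the 6 conditions had 1 library, so a difference between 2 conditions has no replicate check. The intervals given with ratios and shares are 95% Clopper-Pearson intervals that cover counting error only.

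A B cell builds 1 heavy chain gene and 1 light chain gene by joining V and J segments (with D segments in the heavy chain). The rearranged heavy chain V region is first made with the mu and delta constant regions, giving IgM and IgD. After activation, class switching places the same V region in front of a gamma, alpha or epsilon constant region, giving IgG, IgA or IgE. Light chains use either the kappa or the lambda locus and do not switch. Jchain links the units of polymeric IgM and IgA and is made in quantity by antibody-secreting plasma cells. In lung, naive B cells mostly carry IgM and IgD, and switched transcripts mark cells that have met antigen.

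The J segments are shown because each rearranged transcript ends its variable part with 1 of them, and because a kappa segment, Igkj3, differed from the others in sequence. The sequences are those of the GENCODE M21 transcripts (GRCm38) annotated as J segments, 5′ to 3′ on the coding strand. Other annotated exons of Ighj2, Igkj2 and Igkj5 reach further and were counted with them. Capitals mark the stretch that codes for the conserved tryptophan (heavy chain) or phenylalanine (kappa) and the glycines after it, searched on the coding strand as TGG (heavy chain) or TTC (kappa) followed by GG, any 4 bases and GG. The heavy chain segments lie on the minus strand, Ighj1 at chr12:113429781-113429833, Ighj2 at chr12:113429468-113429515, Ighj3 at chr12:113429085-113429132 and Ighj4 at chr12:113428514-113428567.
Ighj1: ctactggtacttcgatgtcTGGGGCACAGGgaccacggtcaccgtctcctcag
Ighj2: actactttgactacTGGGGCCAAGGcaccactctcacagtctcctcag
Ighj3: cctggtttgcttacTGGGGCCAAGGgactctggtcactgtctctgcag
Ighj4: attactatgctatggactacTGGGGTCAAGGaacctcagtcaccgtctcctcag

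The kappa segments lie on the plus strand, Igkj1 at chr6:70722562-70722599, Igkj2 at chr6:70722916-70722954, Igkj3 at chr6:70723223-70723260, Igkj4 at chr6:70723548-70723585 and Igkj5 at chr6:70723886-70723923.
Igkj1: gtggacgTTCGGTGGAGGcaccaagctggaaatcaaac
Igkj2: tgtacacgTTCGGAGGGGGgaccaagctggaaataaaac
Igkj3: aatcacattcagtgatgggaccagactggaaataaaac
Igkj4: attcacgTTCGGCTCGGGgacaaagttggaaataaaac
Igkj5: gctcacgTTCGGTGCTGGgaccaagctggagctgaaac

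The heavy chain motif was found in 4 of 4 heavy chain J segments, and the kappa motif in 4 of 5 kappa J segments. Igkj3, known as a segment that does not give functional kappa chains, did not hold it. In 2032 windows of 54 bases cut from the V segments, the heavy chain motif was found in 0.394% and the kappa motif in 0.

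The 3′ ends of the V segments that the results turn on follow, 60 bases each on the coding strand, with the last in-frame cysteine codon in capitals. This codon opens the third complementarity-determining region, which contacts antigen. Igkv10-96 (chr6:68631963-68632022, minus strand) and Igkv1-117 (chr6:68121768-68121827, plus strand) were the kappa segments with the highest mean level, and Ighv8-8 (chr12:115294062-115294121, minus strand) was that of the heavy chain. Igkv3-2 (chr6:70699008-70699067, plus strand) and Ighv1-72 (chr12:115757984-115758043, minus strand) took a larger share of reads in the BLM libraries, and Iglv3 (chr16:19241207-19241266, minus strand) is a lambda segment.
Igkv10-96: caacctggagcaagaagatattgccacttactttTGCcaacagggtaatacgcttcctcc
Igkv1-117: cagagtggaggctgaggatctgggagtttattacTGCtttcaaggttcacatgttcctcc
Igkv3-2: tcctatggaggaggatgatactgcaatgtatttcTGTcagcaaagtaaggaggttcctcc
Ighv8-8: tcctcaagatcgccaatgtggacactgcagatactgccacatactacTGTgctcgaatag
Ighv1-72: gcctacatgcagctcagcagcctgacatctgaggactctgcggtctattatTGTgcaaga
Iglv3: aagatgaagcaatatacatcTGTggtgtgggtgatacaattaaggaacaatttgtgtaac

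Counted reads per library ranged from 30236120 to 52918696. The noncoding RNA gene Gm26917 took 38.4% of the reads of the BLM Lamp1-depleted library and 0.884% to 7.10% of the others, and that library had the lowest TMM factor (edgeR's scaling for composition), 0.699 against 0.993 to 1.19. Ratios that include it therefore carry the scaling limits given with the alternatives. Levels are given as CPM, TMM-scaled reads per 1000000 counted reads. The sort was visible in its own target: Lamp1 was at 146 CPM in the depleted and 491 CPM in the enriched library of sham, and at 111 and 378 CPM in those of BLM. Pecam1, an endothelial marker, was present in all 6 libraries (340 to 2009 CPM), as was Ptprc, the pan-leukocyte antigen CD45 (173 to 2593 CPM). In bulk libraries, fewer cells of a type and less RNA per cell cannot be told apart.

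Below, 3 values for sham or BLM stand for the unsorted, the Lamp1-depleted and the Lamp1-enriched library, in that order. Immunoglobulin genes took 0.0429%, 0.677% and 0.0341% of counted reads in sham and 0.0234%, 0.0938% and 0.0219% in BLM. The sham Lamp1-depleted library had the highest share of the 6. No read fell on 67 of the 375 genes in any library, 78 had 1 to 9 reads in their highest library, and 230 had at least 10. V segments annotated as pseudogenes or as LV genes rather than as V genes numbered 132 of 348, and they held 1.76% of the heavy chain V reads and 1.05% of the kappa V reads.

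IgM and IgD made up nearly all heavy chain constant region reads in sham lung, and they were lower in all 3 BLM libraries. Ighm, the constant gene of IgM (chr12:113418558-113422730), had 132, 2338 and 122 CPM in sham and 103, 513 and 92.3 CPM in BLM. Ighd, the constant gene of IgD (chr12:113406604-113416324), had 61.8, 1046 and 51.9 CPM in sham and 31.99, 306 and 17.7 CPM in BLM. The 2 Lamp1-depleted libraries stood above the other 4 for both genes. The BLM over sham log2 ratio of Ighm was -0.36 (-0.42 to -0.30) in unsorted, -2.19 (-2.22 to -2.16) in Lamp1-depleted and -0.40 (-0.46 to -0.35) in Lamp1-enriched cells. For Ighd it was -0.95 (-1.05 to -0.85), -1.77 (-1.81 to -1.73) and -1.55 (-1.66 to -1.44).

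IgM and IgD did not shift in proportion. Ighd held 31.9%, 30.9% and 29.8% of IgM plus IgD reads in the sham libraries, a narrow span. In BLM it held 23.8% (22.6% to 24.9%) in unsorted, 37.4% (36.7% to 38.1%) in Lamp1-depleted and 16.1% (15.2% to 17.1%) in Lamp1-enriched cells. The BLM Lamp1-depleted library was above, and the other BLM libraries below, every sham library. Per kilobase of exon, Ighd was below Ighm in each of the 6 libraries, for example at 32.5 against 69.9 CPM per kilobase in sham unsorted cells.

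The 4 IgG genes ran the other way. Ighg1 (chr12:113325240-113330523), the constant gene of IgG1, had 12, 52 and 9 reads in sham and 110, 28 and 297 reads in BLM. Ighg2b (chr12:113302965-113307933) had 23, 156 and 19 reads in sham and 134, 122 and 123 in BLM. Ighg2c (chr12:113285325-113288932), which C57BL/6 mice carry in place of Ighg2a, had 22, 39 and 10 reads in sham and 80, 109 and 209 in BLM. Each of these genes was higher in the BLM unsorted and Lamp1-enriched libraries than in the sham ones.

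Ighg3 (chr12:113356224-113361232), whose IgG3 is made mainly against carbohydrate antigens, had 6, 44 and 6 reads in sham and 82, 57 and 131 in BLM. In unsorted cells the BLM over sham log2 ratio of TMM-scaled reads was 3.95 (2.89 to 5.56) for Ighg3, 3.44 (2.63 to 4.49) for Ighg1, 2.81 (2.20 to 3.55) for Ighg2b and 2.13 (1.47 to 2.91) for Ighg2c. In Lamp1-enriched cells it was 4.73 (3.86 to 5.94) for Ighg1, 4.10 (3.04 to 5.68) for Ighg3, 4.08 (3.23 to 5.22) for Ighg2c and 2.42 (1.75 to 3.23) for Ighg2b. In Lamp1-depleted cells the ratios were smaller, 2.57 (2.05 to 3.16) for Ighg2c, 1.47 (0.89 to 2.09) for Ighg3 and 0.75 (0.40 to 1.11) for Ighg2b. For Ighg1 that interval held 0, at 0.21 (-0.50 to 0.91), and with total counted reads in place of TMM its sign turned, to -0.50 (-1.22 to 0.19). Scaled that way, Ighg2b was at 0.03 (-0.32 to 0.39) in the same comparison.

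Igha (chr12:113254830-113260236), the constant gene of the mucosal antibody IgA, had 84, 148 and 45 reads in the sham libraries and 184, 152 and 205 in the BLM libraries. Its BLM over sham log2 ratio was 1.42 (1.05 to 1.82) in unsorted, 1.14 (0.81 to 1.48) in Lamp1-depleted and 1.93 (1.47 to 2.44) in Lamp1-enriched cells. It was higher in BLM in each fraction. Ighe (chr12:113269260-113273248), the IgE gene, had 0, 3 and 0 reads in sham and 1, 11 and 0 in BLM. A count of 0 allows up to 3 reads, so IgE was not detectable in the libraries at 0. With the 0 taken as 3 reads, the BLM Lamp1-depleted library was 9.46-fold above the BLM Lamp1-enriched one by TMM scaling. That value leaves out the counting error of the 11 reads. The counting interval of the enriched over depleted log2 ratio reached up to -2.70.

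**Figure D1:**
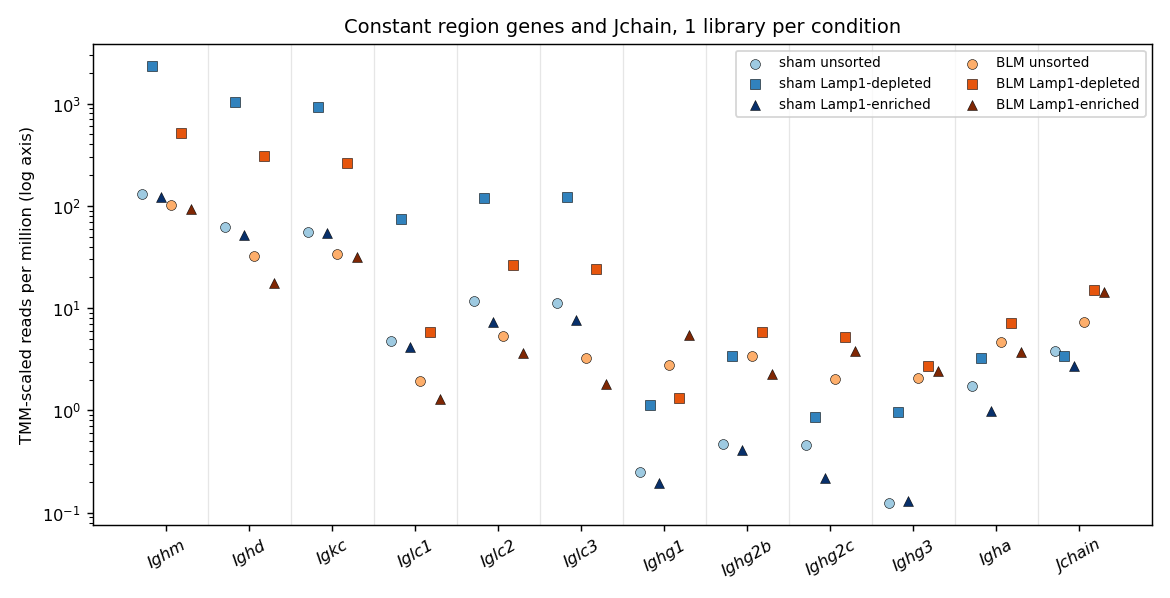
CPM (log axis) of the constant region genes and Jchain in each of the 6 libraries, 1 point per library. Ighm, Ighd and the light chain genes are highest in the 2 Lamp1-depleted libraries and lower in BLM than in sham, while the IgG genes of BLM unsorted and Lamp1-enriched cells lie above their sham counterparts.

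As a share, which does not depend on the scaling between libraries, switched isotypes (IgG, IgA and IgE) were a larger part of the heavy chain constant reads in each BLM library. They held 1.54% (1.30% to 1.81%), 0.286% (0.260% to 0.314%) and 1.10% (0.884% to 1.35%) of these reads in sham. In BLM they held 10.01% (9.26% to 10.8%), 2.69% (2.46% to 2.94%) and 13.9% (13.1% to 14.7%). The intervals of BLM and sham did not overlap in any fraction. Per kilobase of exon the shares were 1.26%, 0.223% and 0.874% in sham and 8.32%, 2.40% and 12.3% in BLM. Gene counts do not show whether a read on a constant gene came from a transcript joined to a V region, so switching itself was not measured.

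The makeup of the IgG reads also differed between libraries. Ighg1 was 19.0%, 17.9% and 20.5% of the IgG reads in the sham libraries and 27.1% (22.8% to 31.7%), 8.86% (5.97% to 12.6%) and 39.1% (35.6% to 42.7%) in the BLM libraries. Ighg2b held 53.6% (47.7% to 59.4%) of the IgG reads in sham Lamp1-depleted cells and 16.2% (13.6% to 19.0%) in BLM Lamp1-enriched cells, where each of the other IgG genes had more reads. Per kilobase, Ighg2c (2.89 CPM per kilobase) and Ighg1 (2.10 CPM per kilobase) were the highest IgG genes in BLM Lamp1-enriched cells, and Ighg2c (3.89 CPM per kilobase) led in BLM Lamp1-depleted cells. The sham unsorted and Lamp1-enriched libraries rested on 63 and 44 IgG reads in all, so their order was not resolved.

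**Figure D2:**
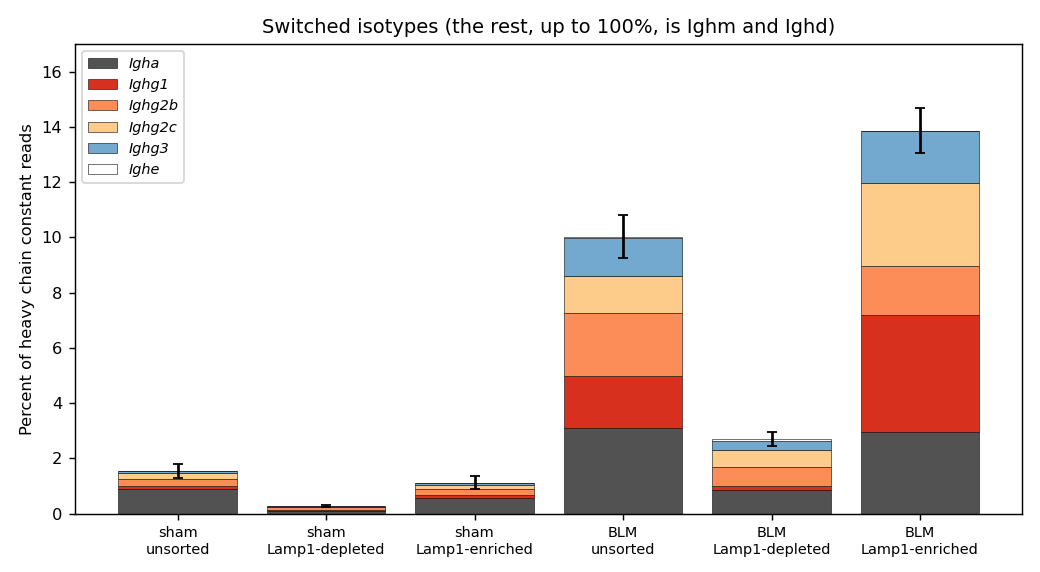
Percent of heavy chain constant region reads on Igha, the 4 IgG genes and Ighe in each library, stacked, with the 95% counting interval of their total. The total is 10.01% and 13.9% in BLM unsorted and Lamp1-enriched cells and at most 1.54% in the 3 sham libraries.

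Jchain (chr5:88519809-88527891) had 183, 154 and 124 reads in the sham libraries and 286, 319 and 785 in the BLM libraries. Every BLM library was above every sham library. The BLM over sham log2 ratio was 0.94 (0.67 to 1.22) in unsorted, 2.16 (1.88 to 2.45) in Lamp1-depleted and 2.41 (2.14 to 2.70) in Lamp1-enriched cells. For the sort, the counting intervals of Jchain held 0, with an enriched over depleted log2 ratio of -0.32 (-0.68 to 0.02) in sham and -0.07 (-0.26 to 0.12) in BLM. With total counted reads these ratios were -0.50 (-0.85 to -0.15) and 0.49 (0.30 to 0.68), so the value in BLM turned its sign.

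The light chains followed IgM and IgD. Igkc, the single kappa constant gene (chr6:70726435-70726966), had 56.0, 922 and 54.6 CPM in sham and 33.6, 263 and 31.7 CPM in BLM. The lambda constant genes Iglc1, Iglc2 and Iglc3 together had 27.7, 314 and 19.1 CPM in sham and 10.6, 56.4 and 6.77 CPM in BLM. Both were lower in each BLM library than in the sham library of the same fraction, Igkc by a log2 ratio of -0.74 (-0.83 to -0.64) and the lambda sum by -1.39 (-1.55 to -1.23) in unsorted cells. Iglc3 overlaps the antisense gene 2010309G21Rik, and without a stated strand setting their reads cannot be told apart. Iglc2 holds the exon of Iglj2 on the same strand, and Iglj2 had no read.

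The kappa share depended on which segment was counted. Of light chain constant reads, kappa made up 66.9%, 74.6% and 74.04% in the sham libraries and 76.1%, 82.3% and 82.4% in the BLM libraries, higher in BLM in each fraction. Of light chain V reads, kappa made up 85.7%, 88.5% and 91.1% in sham and 80.1%, 81.4% and 89.1% in BLM, lower in BLM in each fraction. Of the far fewer J reads it was 80.0%, 79.9% and 81.1% in sham and 92.5%, 90.4% and 89.0% in BLM. The direction therefore turned between constant and V segments, and no single direction is given for the light chain balance.

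Within lambda, the makeup of the reads differed between the Lamp1-depleted libraries. Iglc1 held 23.5% (22.8% to 24.2%) of lambda constant reads in sham Lamp1-depleted and 10.3% (8.66% to 12.2%) in BLM Lamp1-depleted cells. Iglv1, a V segment that rearranges mostly to the Iglc3 and Iglc1 clusters, went from 46.7% (45.3% to 48.0%) to 16.6% (13.3% to 20.3%) of lambda V reads between the same libraries. Iglc3, in turn, held 38.9% (38.1% to 39.7%) of lambda constant reads in the sham and 43.2% (40.3% to 46.0%) in the BLM library. Iglv3 took 70.4% (65.9% to 74.5%) of lambda V reads in BLM Lamp1-depleted cells, against 41.4% in sham Lamp1-depleted and 35.7% (29.0% to 42.8%) in BLM Lamp1-enriched cells. Iglv1 and Iglv2 are 97.1% identical, so reads may be shared between them, while Iglv3 is 62.5% identical to its nearest neighbour.

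J segments are 38 to 100 bases of exon and held few reads, 29 to 419 for the heavy chain and 73 to 1126 for kappa. Ighj4 led the heavy chain segments in sham Lamp1-depleted cells with 207 of 419 reads, and per kilobase as well (84.1 CPM per kilobase against at most 26.8 for the others). Igkj4 led the kappa segments in sham Lamp1-depleted cells with 367 of 1126 reads and in BLM Lamp1-depleted cells with 190 of 320. Its share was 32.6% (29.9% to 35.4%) in the first and 59.4% (53.8% to 64.8%) in the second.

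Igkj3, the segment without the motif printed above, had 22, 157 and 9 reads in sham and 6, 4 and 2 in BLM. It held 11.5% and 13.9% of kappa J reads in sham unsorted and Lamp1-depleted cells and 9 of 90 reads in sham Lamp1-enriched cells. Igkj2, which holds the motif, was near it in sham unsorted and Lamp1-depleted cells, at 10.9% and 12.4%. In BLM, Igkj3 held 6.06% (2.26% to 12.7%), 1.25% (0.342% to 3.17%) and 2.74% (0.334% to 9.55%). In Lamp1-depleted cells, where the reads were most, the BLM and sham intervals lay apart, and the share of Igkj5 was also lower there in BLM, at 7.81% (5.12% to 11.3%) against 23.1% (20.7% to 25.7%).

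Single genes were compared where the higher library of a pair held 10 or more reads. For BLM against sham in unsorted cells this left 116 members. Of these, 3 were higher and 7 lower by a log2 ratio of at least 3 (8-fold), beside 1.66% and 1.93% of all 22772 genes tested. At a log2 ratio of at least 1, 11 were higher and 61 lower, beside 13.9% and 16.0%. The median over the members was -1.12, against -0.07 over all genes. The 3 that were higher were Ighg1, Ighg3 and the kappa pseudogene Igkv13-71-1, which had 12 reads in BLM and 0 in sham. With a floor of 3 reads it was 4.92-fold higher, so that its place past 8-fold rests on the prior count of 0.5. So does that of the lower segments with 0 reads. The 7 that were lower were Iglj3, Iglj3p and the V segments Igkv14-111, Igkv3-12, Ighv5-16, Ighv5-17 and Ighv1-39, with 10 to 34 reads in sham and 0 to 3 in BLM. Apart from the isotypes, the members past 8-fold thus all had few reads, and they were named after their values were seen. Of 93 V segments tested, 75 were lower and 18 higher in BLM to any degree.

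In Lamp1-depleted cells, 228 members could be compared between BLM and sham. A log2 ratio of at least 3 was reached by 106 in the lower direction and by 0 in the higher direction, beside 3.84% and 2.52% of all 20852 genes, and the median was -2.89 against -0.20. At a ratio of at least 1 the counts were 7 higher and 201 lower, beside 13.7% and 22.3%. Of 203 V segments, 200 were lower. Igkv8-27, with 445 reads in sham and 0 in BLM, was 68.7-fold lower with the 0 taken as 3 reads. Exon length went with this ratio: over all genes the median was -0.62 for exon lengths up to 1500 bases, -0.19 from there to 3000 and -0.10 above 3000. Kappa V reads were lower by a log2 ratio of -3.21 (-3.28 to -3.15) and kappa constant reads by -1.81 (-1.85 to -1.77). In the B cell list below, 2 genes of up to 1500 bases had a median of -2.77 and 13 of more than 3000 bases -0.36. In unsorted cells the medians over all genes were -0.31, -0.08 and 0.00 in the same order of length, and in Lamp1-enriched cells -0.03, -0.02 and 0.01. The short and the long genes of the B cell list had medians of -1.68 and -0.28 in unsorted cells. In Lamp1-enriched cells these were -1.97 and -0.75. The part of transcript length in the V segment ratios of the 3 BLM over sham comparisons was not tested.

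In Lamp1-enriched cells, 123 members could be compared between BLM and sham. Past 8-fold, 3 were higher and 13 lower, beside 1.35% and 0.637% of all 21671 genes, with a median of -0.94 against -0.00. At a ratio of at least 1 they were 17 and 58, beside 10.2% and 7.86%. The 3 that were higher were the constant genes Ighg1, Ighg2c and Ighg3. The 13 that were lower were V segments. The one with the most reads, Igkv4-68, had 51 reads in sham and 2 in BLM. Igkv4-90 had 49 and 0, and was 19.4-fold lower with the 0 taken as 3 reads.

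**Figure D3:**
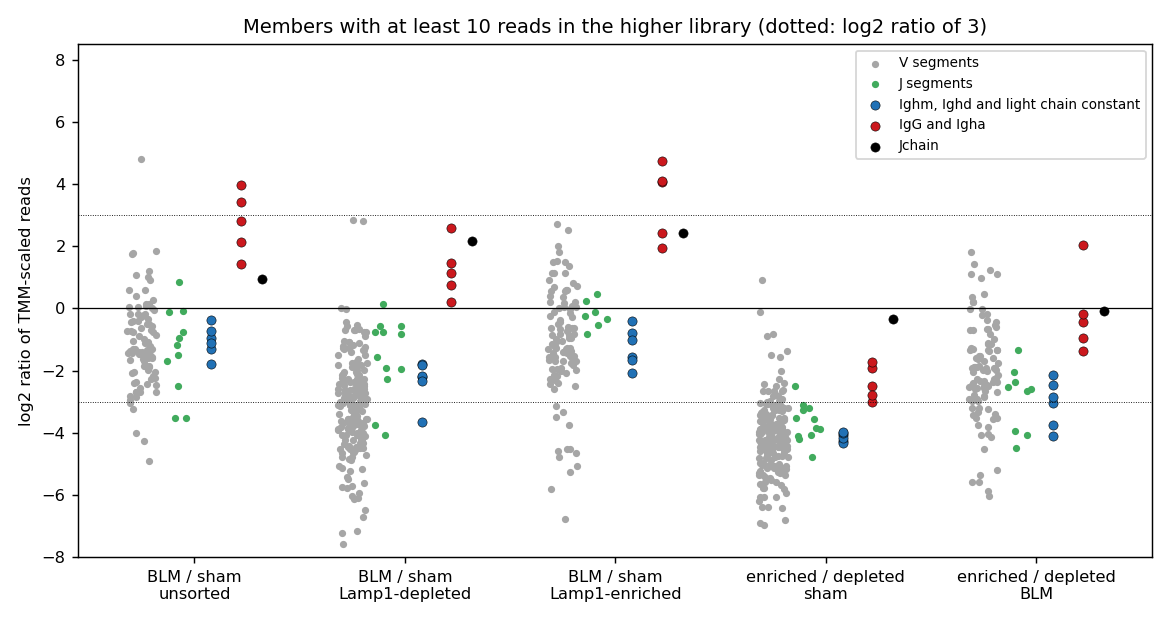
Log2 ratio of TMM-scaled reads (prior count 0.5) of each member compared, in the 5 comparisons of single libraries. V segments lie mostly below 0 in each comparison, with medians from -1.17 to -4.12, while the IgG genes and Igha lie above 0 in the 3 BLM over sham comparisons.

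Most immunoglobulin genes were lower in the Lamp1-enriched than in the Lamp1-depleted library. Summed, they had 360, 5881 and 335 CPM in sham and 235, 1342 and 213 CPM in BLM. The unsorted libraries thus lay near the enriched ones and below the depleted ones, and the reason was not tested. In sham, 197 of 226 members tested were more than 8-fold lower in the enriched than in the depleted library and 0 higher, beside 6.86% and 6.21% of all 21867 genes, with a median of -4.05 against -0.01 over all genes. At a ratio of at least 1, 221 were lower and 0 higher, beside 25.2% and 27.5%. In BLM, 28 of 122 were lower and 0 higher, beside 6.62% and 10.6% of all 21838 genes, with a median of -2.10 against 0.29. At a ratio of at least 1, 93 were lower and 6 higher, beside 22.6% and 34.3%. The summed immunoglobulin reads were lower by a log2 ratio of -4.14 (-4.16 to -4.11) in sham and -2.66 (-2.69 to -2.63) in BLM.

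With the 4 sorted libraries in 1 fit and treatment blocked, edgeR's quasi-likelihood test called 122 of 136 members lower and 0 higher in Lamp1-enriched cells at a Benjamini-Hochberg adjusted p under 0.05, beside 19.2% and 21.5% of 20593 genes. At an unadjusted p under 0.05, 127 were lower and 0 higher, beside 22.9% and 24.8% of all genes. A DESeq2 Wald test called 136 lower and 0 higher of 197, beside 15.8% and 18.4% of 21664 genes. The test had 1 residual degree of freedom and took its spread from all genes. Ighm fell by 3.46 on the log2 scale (adjusted p = 6.06e-12, edgeR), Ighd fell by 4.32 (adjusted p = 1.62e-20, edgeR) and Igkc fell by 3.66 (adjusted p = 3.57e-16, edgeR). Heavy chain V segments were called lower in 39 of 43 cases and kappa V segments in 62 of 68.

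The 14 members that did not pass included IgG and secretion genes. Ighg2b (log2 -2.24, adjusted p = 0.000403, edgeR) and Igha (log2 -1.42, adjusted p = 0.0161, edgeR) passed. Ighg2c (log2 -1.19, adjusted p = 0.0987, edgeR), Ighg3 (log2 -1.41, adjusted p = 0.102, edgeR), Ighg1 (log2 -0.14, adjusted p = 0.899, edgeR) and Jchain (log2 -0.29, adjusted p = 0.607, edgeR) did not. For Ighg1 the 2 pools ran opposite ways, with an enriched over depleted log2 ratio of -2.48 (-3.75 to -1.51) in sham and 2.03 (1.48 to 2.65) in BLM. The remaining 10 were V segments, among them Igkv4-90 (log2 -2.10, adjusted p = 0.0630, edgeR) and Igkv4-86 (log2 -1.69, adjusted p = 0.158, edgeR).

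**Figure D4:**
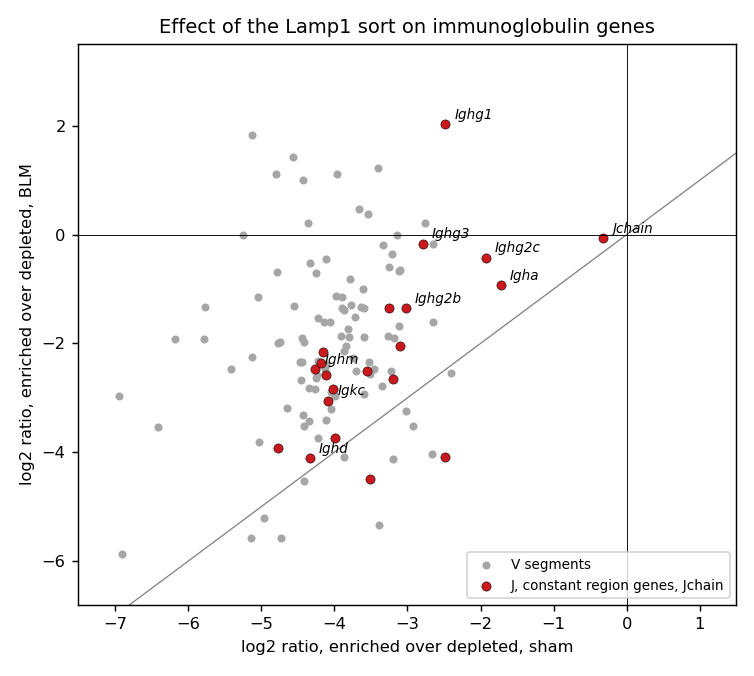
Enriched over depleted log2 ratio of each member in BLM (y axis) against sham (x axis), for members compared in both pairs, with the line of equal ratios. Points lie mostly below 0 on both axes and above the line of equal ratios, and Ighg1 is at -2.48 in sham and 2.03 in BLM.

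The share of each V segment among the V reads of its locus was compared next, since it does not depend on scaling. Ighv8-8 took the largest share of heavy chain V reads in all 6 libraries, 11.3%, 7.77% and 9.90% in sham and 13.1%, 13.9% and 7.60% in BLM. Igkv10-96 led the kappa segments in the 3 sham libraries, with 6.16%, 5.68% and 5.37%. It held 5.06%, 4.31% and 3.68% in BLM, where it led in none.

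Igkv3-2 had 54, 765 and 83 reads in the sham libraries and 67, 107 and 215 in the BLM libraries. It made up 2.28% (1.71% to 2.96%), 1.94% (1.80% to 2.08%) and 2.95% (2.36% to 3.65%) of kappa V reads in sham. In BLM it made up 8.07% (6.31% to 10.1%), 5.43% (4.47% to 6.52%) and 13.2% (11.6% to 14.9%), and it ranked first, second and first. The BLM intervals lay above the sham intervals in every fraction. Igkv3-2 was named for its high BLM over sham ratio, so this describes the values that chose it and is no test. Its nearest V segment, Igkv3-1, is 92.8% identical and had at most 119 reads. The Igkv3 family without Igkv3-2 held 6.32%, 6.46% and 5.91% in sham and 7.11%, 6.03% and 6.81% in BLM.

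In the heavy chain, Ighv1-72 had 12, 162 and 12 reads in sham and 35, 36 and 32 in BLM. Its share was 1.54%, 1.54% and 1.75% in sham and 7.54% (5.31% to 10.3%), 3.73% (2.62% to 5.12%) and 5.41% (3.73% to 7.55%) in BLM. It is 99.2% identical to Ighv1-62-3, which had at most 1 read, so the assignment of reads between them is uncertain. Ighv3-6, named like Ighv1-72 and Igkv17-121 after its values were seen, went from 1.41% (0.708% to 2.52%) to 6.68% (4.58% to 9.35%) in unsorted cells, while its share in Lamp1-depleted cells was 1.89% in sham and 2.28% in BLM. Among the 97 heavy chain V segments with at least 10 reads in a library, 49 were at least 95% identical to another, and 52 of 105 kappa segments were.

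Some other kappa segments had a larger share in BLM Lamp1-enriched cells than in the other 5 libraries. Of these, Igkv4-86 and Igkv6-25 were named for their high ratios in that library. Igkv4-86 had 8, 152 and 6 reads in sham and 0, 7 and 50 in BLM, a share of 3.07% (2.29% to 4.03%) in BLM Lamp1-enriched cells against at most 0.385% elsewhere. Igkv6-25 held 3.93% (3.04% to 4.99%) there and 0.963% to 1.81% in the other libraries. Igkv17-121 held 6.75% (5.58% to 8.08%) there and 2.41% to 4.02% in the others.

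The V reads were spread over fewer segments in BLM. The effective number of kappa V segments, the exponential of the Shannon entropy of their shares, was 60.6, 59.6 and 57.7 in sham and 52.0, 55.4 and 41.7 in BLM. With every library thinned to 830 kappa V reads it was 57.9, 58.1 and 53.5 in sham and 52.0, 54.8 and 42.0 in BLM. For the heavy chain it was 59.7, 65.6 and 53.1 in sham and 38.3, 50.4 and 43.1 in BLM, and at 464 reads 57.3, 55.1 and 51.6 in sham and 38.3, 48.4 and 42.4 in BLM. The number was lower in BLM than in sham in each fraction for both loci. Without Igkv3-2, and with no thinning, the kappa number was 59.7, 58.6 and 56.9 in sham and 54.2, 55.8 and 46.9 in BLM. Unequal read depth thus enters these values. As each library is 1 pool, differences between mice cannot be told apart from the treatment.

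**Figure D5:**
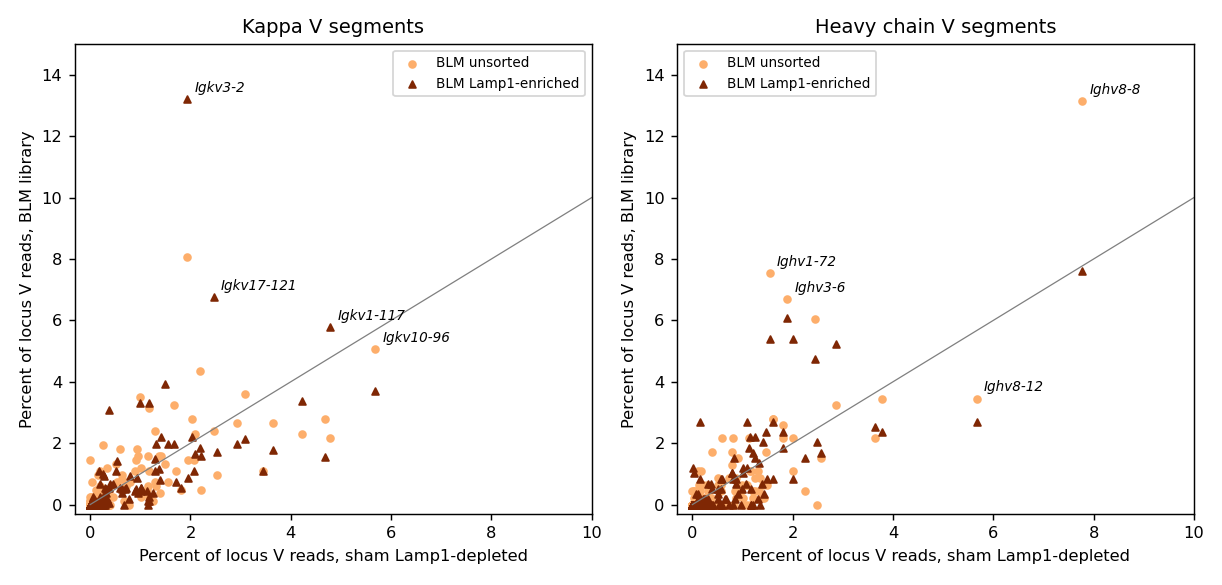
Share of each V segment in the V reads of its locus (percent) in BLM unsorted and BLM Lamp1-enriched cells (y axis) against sham Lamp1-depleted cells (x axis), the library with the most V reads, with the line of equal shares. Igkv3-2 lies farthest above the line among kappa segments, at 1.94% in sham and 8.07% and 13.2% in BLM, and Ighv1-72 and Ighv3-6 lie above it among heavy chain segments.

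The genes that accompany immunoglobulins were read from lists. The B cell identity list held 19 genes, among them the B cell receptor partners Cd79a and Cd79b and the surface protein Ms4a1. Of these, 18 were more than 8-fold lower in the enriched than in the depleted library of sham, beside 6.86% of all genes. In BLM 18 were, beside 6.62%. The list's medians were -4.12 and -4.08, against -0.01 and 0.29 over all genes. In the BLM sort, Pax5, the transcription factor of B cell identity, was at -4.73, Ighd at -4.11, Igkc at -3.05 and Ighm at -2.47. For BLM over sham the list's medians were -0.47 in unsorted, -0.73 in Lamp1-depleted and -0.84 in Lamp1-enriched cells. Over all genes they were -0.07, -0.20 and -0.00. The list's members did not move alike, with Cd79b at -1.92 and Btk at 1.19 in unsorted cells.

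Reads were also set against B cell genes, some of them chosen as denominators after values were seen. IgM plus IgD reads per Cd79a read were 7.05, 6.17 and 6.99 in sham and 13.3, 8.76 and 14.5 in BLM, and per Ms4a1 read 3.74, 4.03 and 3.78 in sham and 7.05, 7.60 and 8.04 in BLM. Per read of Cd22, an inhibitory receptor of B cells, they were 3.72, 7.02 and 6.87 in sham and 1.30, 1.58 and 5.34 in BLM. The direction for IgM and IgD thus turned with the denominator. IgG reads per Cd79a read were 0.0473, 0.0116 and 0.0384 in sham and 1.02, 0.160 and 1.84 in BLM, and per Cd22 read 0.0250, 0.0132 and 0.0378 in sham and 0.0990, 0.0288 and 0.676 in BLM. IgG was higher in BLM in all 3 fractions against Cd79a, Ms4a1, Cd22 and the sum of the list. Jchain was so against Cd79a, Ms4a1 and the sum, but per Cd22 read it was at 0.0725 in sham and 0.0697 in BLM unsorted cells.

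Of 16 plasma cell and antibody secretion genes, 15 could be compared in unsorted cells. They had a median BLM over sham log2 ratio of 0.42, against -0.07 over all genes, with 9 above 0 and 6 below. Past 8-fold there were 0, beside 1.66% higher and 1.93% lower of all genes. In Lamp1-depleted cells the list's BLM over sham median was -0.70, with 2 above 0 and 13 below, against -0.20 over all genes. In Lamp1-enriched cells it was 0.03, with 8 above 0 and 7 below, against -0.00. The defining plasma cell markers differed among themselves. Sdc1, the syndecan on plasma cells and epithelium, had 506 reads in sham and 979 in BLM unsorted cells, Mzb1, a chaperone for IgM assembly, had 134 and 57, and Tnfrsf17, the plasma cell survival receptor, had 0 to 1 read in all 6 libraries. For the sort in sham, the list's median was -1.37, with 5 above 0 and 10 below, against -0.01 over all genes. For the sort in BLM it was -1.40, with 7 above 0 and 8 below, against 0.29. Against these medians, Xbp1, the secretory program's transcription factor, which other secretory cells use too, was higher in Lamp1-enriched than in Lamp1-depleted cells. It had 9155 and 3982 reads in sham and 16303 and 1541 in BLM, in that order. These reads are unscaled, and the TMM-scaled library size was 54507358 for BLM Lamp1-enriched and 21125199 for BLM Lamp1-depleted cells.

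Of 10 germinal centre and class switching genes, 8 could be compared in unsorted cells, with a median of 0.73 and 7 above 0. In Lamp1-depleted cells the BLM over sham median was 0.08, with 5 above 0 and 5 below. In Lamp1-enriched cells it was 0.02, with 3 above 0 and 3 below. Ung, a uracil glycosylase of base excision repair, had 71, 240 and 64 reads in sham and 116, 95 and 83 in BLM. Of 7 recombination and surrogate light chain genes, 2 could be compared in unsorted cells. Rag1, a subunit of the recombinase, had 24, 518 and 48 reads in sham and 0, 10 and 1 in BLM, and Igll1 and Vpreb2 had no read.

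Among signals that draw and keep B cells, of which 20 of 21 were found, the median in unsorted cells was 0.39 with 14 of 18 above 0. In Lamp1-depleted cells the BLM over sham median was -0.25, with 8 above 0 and 10 below. In Lamp1-enriched cells it was -0.23, with 6 above 0 and 11 below. Cxcl13, which attracts B cells to follicles, had 83 reads in sham and 234 in BLM unsorted cells, and Cxcl12 had 15034 and 26087. Of 14 immunoglobulin transport and Fc receptor genes, 3 of 13 tested were more than 8-fold higher in BLM unsorted cells and 0 lower. Of all genes tested, 1.66% were higher and 1.93% lower. The 3 were the IgG receptors Fcgr1 (3.90), Fcgr2b (3.26) and Fcgr3 (3.15). Pigr, which carries polymeric IgA and IgM across epithelium, had 51 and 58 reads. For BLM over sham in Lamp1-depleted and in Lamp1-enriched cells, 0 of the 13 tested of this list were past 8-fold.

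Markers of other cells moved with the same contrasts. Macrophage markers, of which 7 of 8 were found, had a median of 2.82 in BLM over sham unsorted cells, with 7 of 7 above 0 and summed reads of 23294 and 118212. For the sort, the 8 endothelial markers summed to 58970 reads in the depleted and 458232 in the enriched library of sham, and to 20651 and 584463 in those of BLM. The 8 T cell markers summed to 28116 and 1467 unscaled reads in the depleted and enriched libraries of sham and to 9362 and 1088 in those of BLM. Scaled, their medians were -4.38 and -4.33. The 8 plasmacytoid dendritic cell markers, several of which B cells also express, had medians of -0.01 in BLM over sham unsorted cells and -2.36 and -2.59 for the sort in sham and BLM. The part of these cells in the immunoglobulin values was not tested.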

How the data were processed

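Poly(A) RNA from 6 libraries was sequenced on an Illumina instrument. The authors deposited unnormalized gene counts. The submitters' processing notes name Trimmomatic 0.36, STAR 2.5.2b, Subread 1.5.2 with featureCounts, DESeq2 and GRCm38. The strand setting and the treatment of reads that match several genes are not given in the sources used here. This bears on near-identical V segments and on reads that join V to J. Genes were matched by identifier to GENCODE M21 (375 of 375 members).

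Members and lists were chosen with earlier results of these data known. Library sizes were scaled by TMM (edgeR 4.0.16, R 4.3.3) over all genes. Log2 ratios used a prior count of 0.5 and a minimum of 10 reads in the higher library of a pair, with Clopper-Pearson intervals (scipy 1.17.1). Ratios against 0 reads used a floor of 3 reads per library and leave out the counting error of the other library. No p-value was computed between single libraries. The quasi-likelihood test used the 4 sorted libraries, blocked by treatment. Programs were tested on simulated data. Named genes were every constant and J gene with reads, and V segments by mean level or by ratio with at least 50 reads, plus those said to be chosen after their values were seen. Some items are not reported here.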

Additional observations from a re-analysis of the deposited data

Results flagged for a closer look

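Ighg1, the IgG1 constant gene, ran opposite ways in the sort. Its enriched over depleted log2 ratio was -2.48 in sham (9 against 52 reads) and 2.03 in BLM (297 against 28 reads), and both counting intervals excluded 0. The difference was not tested, since each fraction is 1 library.

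Igkv3-2 ran opposite ways between fractions, with a BLM over sham log2 ratio of -1.73 in Lamp1-depleted and 1.12 in Lamp1-enriched cells. Igkv4-86 did so in both designs. Its enriched over depleted log2 ratio was -4.57 in sham and 1.43 in BLM, and its BLM over sham log2 ratio was -3.27 in Lamp1-depleted and 2.72 in Lamp1-enriched cells. Neither difference was tested.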

How the results depend on the processing

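With 1 library per condition no replicate could be left out. The edgeR test of the sort pairs the fractions of each pool through its treatment block. For BLM against sham, no paired analysis was possible because each group has 1 sample. Of 472 values under alternatives, 330 held, 141 moved and 1 reversed. The reversed value was the IgG, IgA and IgE sum in BLM Lamp1-enriched over Lamp1-depleted cells, at -0.36 with TMM and 0.20 with total counted reads. Gm26917 took 38.4% of the BLM Lamp1-depleted library, and without it the sum was at -0.47. Among the constant, J and named V genes, total counted reads also turned the sign of Jchain, Ighg2c, Ighg3, Igkv3-2, Igkv3-5 and Igkv4-91 in that comparison (0.49, 0.13, 0.39, 0.20, 0.55 and 0.36), of Ighv12-3 and Ighv1-81 in BLM over sham unsorted cells (-0.10 and -0.21), of Igkv4-91 in Lamp1-enriched cells (to about 0) and of Ighg1 and Igkj4 in BLM over sham Lamp1-depleted cells (-0.50 and -0.56). The edgeR test called 93 of 136 members lower with total counted reads (7.59% of all genes) and 149 of 292 with no filter (9.75%), and 0 higher in each of its alternatives.

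Total reads scaling gave the summed immunoglobulin log2 ratio as -0.88 for BLM over sham unsorted cells, -4.31 for the sort in sham, -2.10 for the sort in BLM and -2.85 for BLM over sham Lamp1-depleted cells. Leaving out Gm26917 (chosen after seeing the data) gave -0.79, -4.35, -2.77 and -2.21. DESeq2 size factors gave -2.81 for the sort in BLM and -1.98 for Lamp1-depleted cells, and thinned counts gave -2.72 and -2.06.

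For BLM over sham unsorted cells, the counts of members higher were 7 with at least 1 read, 5 at a log2 ratio of 2 and 11 at a ratio of 1. The counts lower were 2 with a prior count of 2, 32 with 1 read, 0 with 50 reads, 26 at a ratio of 2 and 61 at a ratio of 1. In the sham sort, 1 was higher with 1 read. In the BLM sort, 2, 1 and 6 were higher and 70, 64 and 93 lower with 1 read, a ratio of 2 and a ratio of 1, and 8 were lower with 50 reads. In Lamp1-depleted cells, 3, 5 and 7 were higher with 1 read, a ratio of 2 and a ratio of 1, and 169 and 201 lower at ratios of 2 and 1. In Lamp1-enriched cells, 5, 8 and 17 were higher in that order, and 7, 5, 24, 1, 23 and 58 lower with thinning, a prior count of 2, 1 read, 50 reads, a ratio of 2 and a ratio of 1.

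Per kilobase, the switched shares were 1.26%, 0.223% and 0.874% in sham and 8.32%, 2.40% and 12.3% in BLM. Thinned, the sham Lamp1-depleted share was 0.322%. The kappa share of constant reads in sham unsorted cells was 66.9%, and 65.3% thinned. The kappa share was 85.7%, 88.5% and 91.1% in sham and 80.1%, 81.4% and 89.1% in BLM by V segments, and 80.0%, 79.9%, 81.1%, 92.5%, 90.4% and 89.0% by J segments.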
